A study of Arabidopsis thaliana with 4 samples.

Results

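Cupin storage globulins are the proteins that fill the protein storage vacuoles of a maturing seed and feed the seedling after germination. They have 2 forms, the legumin type, called cruciferins in Arabidopsis, which is cut into subunits by vacuolar processing enzymes, and the vicilin type. Their genes are switched on late in seed development by abscisic acid and the seed maturation regulators, and their transcripts remain in the dry seed. The 5 genes described here were named as cupin family storage globulin genes, and each had 1 probe set paired with it alone in the array's annotation, so that all 5 listed genes were measured, of 16505 genes measured in this way and 38408 probe sets in all. PAP85 (AT3G22640), AT2G28490, AT2G18540 and AT4G36700 encode vicilin-like proteins, and AT1G03890 encodes a cruciferin-like protein of the legumin type. The files hold no family annotation, so these assignments are background knowledge.

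RNA came from Arabidopsis thaliana seeds of the wild type, Ler-0, and of the mutant wrky43-1, in which the gene of the transcription factor WRKY43 is altered. The labels do not state the accession that carries the wrky43-1 allele. Every sample was 10 mg of dry seeds that then spent 4 days in 0.5 MS liquid culture medium to which 2 µM abscisic acid had been added. Abscisic acid keeps seeds from germinating, and it was given to both genotypes, with no untreated seeds among the samples. Each genotype had 2 biological replicates on 1 array each. The series asks by its title how WRKY43 bears on the fatty acids and stress tolerance of seeds, and its single comparison is that of wrky43-1 with wild type.

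All values below are on the log2 scale as deposited, and differences are wrky43-1 minus wild type. Array medians lay between 4.34 and 4.43. Replicate arrays correlated at 0.986 (wild type) and 0.987 (wrky43-1), and arrays of unlike genotype at 0.978 to 0.981 (Pearson's r across probe sets, which are not independent replicates). Precision is limited by the number of arrays, and with no scanner values used here the signal over background of a probe set is unknown. The level of WRKY43 itself was not analysed here, so it gives no check of the genotype labels. Markers of other tissues were few, with 2 of 10 seedling photosynthesis genes, 2 of 9 endosperm and seed coat genes and 2 of 3 root genes measured. Their summed log2 values were 12.39 and 12.91 in wild type against 13.52 and 12.43 in wrky43-1 for photosynthesis, 5.93 and 5.94 against 5.83 and 5.78 for endosperm and seed coat, and 5.73 and 6.19 against 6.06 and 5.80 for root. The endosperm, seed coat and root genes all read below the array medians. Within each list they went opposite ways, with log2 differences of -0.26 for AT3G50990 and 0.14 for BAN, and of -0.21 for EXPA7 and 0.18 for EXPA18. The photosynthesis genes went opposite ways: LHCB4.1 read 8.86 and 8.99 in wild type and 8.47 and 8.69 in wrky43-1, and PRK read 3.53 and 3.92 against 5.05 and 3.74, so that its value on wrky43-1 replicate 1 alone made the highest sum. Of 10 LEA and dehydration genes, not all of which are particular to seeds, 5 were measured, and they went both ways. AT3G15670 read 12.08 and 12.00 in wild type and 12.17 and 12.19 in wrky43-1, while M17 read 10.73 and 10.69 against 10.15 and 10.28. The part of other tissues in the differences below was not tested.

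All 5 cupin storage globulin genes read lower in wrky43-1 (49.8% of all probe sets and 52.6% of those with 1 gene did so), and for each of them both mutant arrays lay below both wild-type arrays. Over all probe sets the groups were separated in that direction for 23.6%, and for 25.0% of the 16722 probe sets paired with 1 gene. Among those with 1 gene whose mean over the arrays lay within 0.5 of a member's, the share ranged from 27.2% for AT1G03890 to 45.3% for PAP85. The members were chosen with earlier results of these data known, and they moved together in part between replicate arrays. Their shared direction is therefore not 5 separate results, and it was not tested. The median difference of the 5 genes was -0.31, against 0.00093 over all probe sets and -0.015 over those with 1 gene. By limma 1 of the 5 was lower at an unadjusted p under 0.05, as were 6.93% of all probe sets. After adjustment 0 of the 5 passed 0.05, as did 0.0% of all probe sets on the lower side and 0.0026% on the higher side. The size of the difference was uneven, since AT1G03890 read 2.44-fold lower and the vicilin-like genes 1.10-fold to 1.27-fold lower. In whole seeds, fewer cells of a type and less RNA per cell cannot be told apart.

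**Figure D1:**
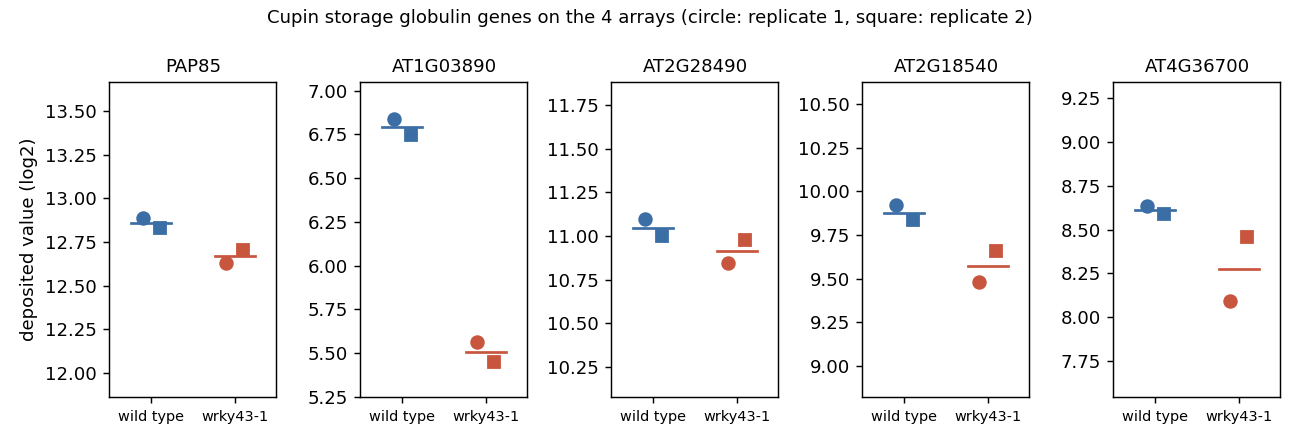
Deposited log2 value of each gene (vertical axis, each panel spanning the same height on its own range) on the wild-type arrays (blue) and the wrky43-1 arrays (red); circles are replicate 1, squares replicate 2 and lines the group means. In each panel both wrky43-1 points lie below both wild-type points, with the widest gap for AT1G03890 and the widest spread within wrky43-1 for AT4G36700.

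The legumin-type gene AT1G03890 had the largest difference of the 5. It read 6.84 and 6.75 in wild type and 5.56 and 5.45 in wrky43-1. The gap of 1.19 between the groups was larger than the ranges within wild type (0.091) and within wrky43-1 (0.11). The group means were 6.79 ± 0.065 and 5.50 ± 0.080 (SD, n = 2 each), a log2 difference of -1.29 (SE 0.12, 95% interval -1.62 to -0.96, limma adjusted p = 0.144). On this scale 40.9% of the wild-type signal was left in wrky43-1. Among the 16722 probe sets with 1 gene, this was the 8th lowest difference and the 16th smallest p, and 0 of the 16722 passed the adjusted threshold. Of the 1828 such probe sets with a mean value within 0.5 of that of AT1G03890, whose median difference was -0.00052, 0.109% had a difference this low or lower.

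PAP85, a vicilin-like gene, read 12.89 and 12.83 in wild type and 12.63 and 12.70 in wrky43-1. The arrays of the 2 genotypes were separated by 0.13, more than the range of 0.059 within wild type and 0.074 within wrky43-1. The log2 difference was -0.19 (SE 0.12, 95% interval -0.51 to 0.12, limma adjusted p = 0.493). Of the 53 probe sets with 1 gene and a mean within 0.5 of that of PAP85, 45.3% were lower in wrky43-1 without overlap.

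AT2G28490, vicilin-like, read 11.10 and 11.00 in wild type and 10.84 and 10.98 in wrky43-1. Its groups were separated by only 0.019, less than the range of 0.099 within wild type and of 0.13 within wrky43-1. The log2 difference of -0.14 had an SE of 0.13 and a 95% interval from -0.48 to 0.21 (limma adjusted p = 0.659). Of the vicilin-like genes it had the smallest difference, the 5020th lowest among probe sets with 1 gene. It was -0.26 with quantile normalization, -0.21 with the arrays centred, -0.086 without wild-type replicate 1 and -0.068 without wrky43-1 replicate 1.

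AT2G18540, vicilin-like, read 9.92 and 9.83 in wild type and 9.48 and 9.66 in wrky43-1. The gap of 0.17 was close to the range within wrky43-1 (0.18) and above that within wild type (0.086). The log2 difference was -0.31 (SE 0.13, 95% interval -0.66 to 0.048, limma adjusted p = 0.36), and 11.6% of probe sets with 1 gene had a difference as low or lower.

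AT4G36700, the remaining vicilin-like gene, read 8.63 and 8.59 in wild type and 8.09 and 8.46 in wrky43-1. The wrky43-1 arrays differed from each other by 0.37, more than the gap of 0.13 between the groups, so the size of the difference rested on wrky43-1 replicate 1. The log2 difference was -0.34 (SE 0.17, 95% interval -0.79 to 0.12, limma adjusted p = 0.415). Without wrky43-1 replicate 1 it was -0.16, and without wrky43-1 replicate 2 it was -0.52. In 913 probe sets with 1 gene and a mean within 0.5 of that of AT4G36700, the median difference was -0.038 and 42.5% were lower without overlap.

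**Figure D2:**
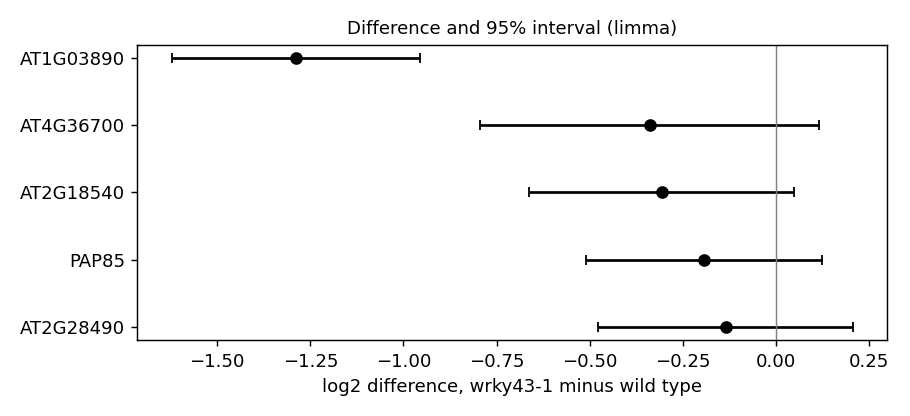
Log2 difference of each gene, wrky43-1 minus wild type (horizontal axis), with its 95% interval from limma (n = 2 arrays per genotype). The interval of AT1G03890, -1.62 to -0.96, lies apart from those of the 4 vicilin-like genes, each of which includes 0.

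The intervals of the 4 vicilin-like genes, taken as folds, reached from 1.73-fold lower for AT4G36700 at the low end to 1.15-fold higher for AT2G28490 at the high end. A missed threshold therefore does not show that these genes were unaltered. Their 95% intervals did not reach the difference of AT1G03890.

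The unequal size was examined with the log2 ratio of each pair of the 5 genes within an array, which compares the change of the 2 genes and not their levels. There were 10 pairs. The ratios of AT1G03890 to the 4 vicilin-like genes changed by -1.10 with PAP85 (AT1G03890 being the numerator in each), -1.15 with AT2G28490, -0.98 with AT2G18540 and -0.95 with AT4G36700, and the genotypes did not overlap in 4 of 4 such pairs. Among the 6 pairs of vicilin-like genes the ratio changed by at most 0.20 in size, and the genotypes did not overlap in 4 of 6. The pairs with AT1G03890 all share that gene and are not separate results. How often pairs of other genes did not overlap was not computed, so these counts have no background. With 2 arrays against 2, the exact permutation test (two-sided) cannot go below p = 0.333, which was reached in 8 of the 10 pairs (0.417 after Benjamini-Hochberg adjustment over the 10), so no difference between the genes could pass.

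The replicate arrays moved the members together in part. Wild-type replicate 1 read above replicate 2 for 5 of the 5 genes, where 49.1% of all probe sets did so. In wrky43-1, replicate 2 read above replicate 1 for 4 of the 5, all vicilin-like, where 50.5% of all probe sets did so, and AT1G03890 went the other way. Of the 5 genes, PAP85 and AT1G03890 had a gap between genotypes larger than both ranges within a genotype. The share of all probe sets with such a gap was not computed.

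The annotation's other storage proteins could not be set beside these genes, since 0 of 8 listed cruciferin and albumin (napin) genes had a probe set paired with one gene. This included CRU2 (AT1G03880), a cruciferin gene that lies directly beside AT1G03890 in the reference annotation TAIR10.1, and which was not analysed here. The nearest measured gene to AT1G03890 among the 3 on each side, AT1G03910, read 7.94 and 8.03 in wild type and 8.01 and 7.96 in wrky43-1, so its genotypes overlapped. Over the 3 protein-coding genes on each side of the 5 members, 13 of 30 were measured, of which 5 read lower and, without overlap, 3 lower and 3 higher (background 25.0% and 21.7% of probe sets with 1 gene).

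Storage globulins reach the vacuole through sorting factors and are cut there by vacuolar processing enzymes (VPEs) and aspartic proteases. Of 16 such genes 7 were measured, and 7 of 7 read lower in wrky43-1 (background 52.6% of probe sets with 1 gene), 5 of them without overlap (background 25.0%), with a median difference of -0.22 against -0.015 over probe sets with 1 gene. The 25.0% covers all levels. At the levels of the globulin genes the share was 27.2% (AT1G03890) to 45.3% (PAP85), and it was not computed for this list. The list, too, was chosen with earlier results of these data known. In limma 0 of 7 passed 0.05, with or without adjustment (6.11% of probe sets with 1 gene were lower at an unadjusted p under 0.05). The aspartic protease gene AT1G62290 read 10.36 and 10.38 in wild type against 10.12 and 10.04 in wrky43-1, a log2 difference of -0.29 (SE 0.12, limma adjusted p = 0.34). BETA-VPE, the processing enzyme of seeds, read 11.10 and 11.14 against 10.72 and 10.99 (log2 difference -0.26). GAMMA-VPE, the enzyme of vegetative tissue, read 8.17 and 8.13 against 7.54 and 8.02 (-0.37), and the aspartic protease gene APA1 read 11.36 and 11.52 against 11.14 and 11.31 (-0.22). In BETA-VPE, GAMMA-VPE and APA1, and in MAG2 and ALPHA-VPE of the same list, wrky43-1 replicate 1 was the lowest array, as in the 4 vicilin-like genes. In AT1G62290 and AT4G04460 it was wrky43-1 replicate 2. The share of all probe sets with either pattern was not computed. The only cysteine protease measured, of 8 listed, was AT4G01610, a cathepsin B gene, with a log2 difference of 0.038.

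Oleosins coat the oil bodies that are stored beside the globulins, and 5 of the 10 listed oil body genes were measured. Of these 4 read lower, 3 without overlap, and 1 higher without overlap, where 52.6% of probe sets with 1 gene read lower, 25.0% lower without overlap and 21.7% higher without overlap. These shares cover all levels. At the level of AT4G36700, 42.5% were lower without overlap, and like-level shares were not computed for the oil body genes. The median difference was -0.086 (range -0.36 to 0.28), and 0 passed the adjusted threshold in limma. The oleosin gene AT1G48990 read 8.31 and 8.30 in wild type and 7.96 and 7.94 in wrky43-1, a log2 difference of -0.36 (SE 0.11, limma adjusted p = 0.27), while AT2G25890 read 8.95 and 8.93 against 9.07 and 9.37 (0.28) and AT3G01570 had a difference of -0.089. The oil body genes thus did not share 1 direction, whereas the 5 globulin genes did. Whether the 2 groups differ was not tested.

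Germins, pirins and other proteins also carry the cupin fold, and a list of germin-like and other cupin genes was made apart from the globulin genes above. With no family annotation at hand, it was not checked which of these genes, AT2G28680 and AT1G07750 among them, encode storage proteins. The list is therefore no clean contrast of storage with other cupins. Of 34 listed genes 22 were measured, of which 14 read lower and 8 higher (52.6% and 47.4% of probe sets with 1 gene), 7 and 4 of them without overlap (25.0% and 21.7% of all probe sets with 1 gene), with a median difference of -0.085. By limma 3 were lower and 0 higher at an unadjusted p under 0.05, against 6.11% and 5.53% of probe sets with 1 gene, and 0 passed after adjustment. Those 3 were AT5G39120 (2.72 and 2.83 in wild type, 2.11 and 2.30 in wrky43-1), AT2G28680 (2.60 and 2.66 against 2.25 and 1.87) and AT5G38930 (3.08 and 3.41 against 2.56 and 2.85). Their values lie close to the lowest on the arrays (1.18), and whether they were above background is unknown. Most of the other measured genes of this list also read below the array medians (4.34 to 4.43), so its counts rest largely on low values. Above the medians, AT1G07750 read 6.11 and 5.99 in wild type and 5.47 and 5.86 in wrky43-1, lower without overlap (log2 difference -0.38). In AT2G43120 (0.026) and AT5G39110 (-0.16), also above the medians, the genotypes overlapped.

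**Figure D3:**
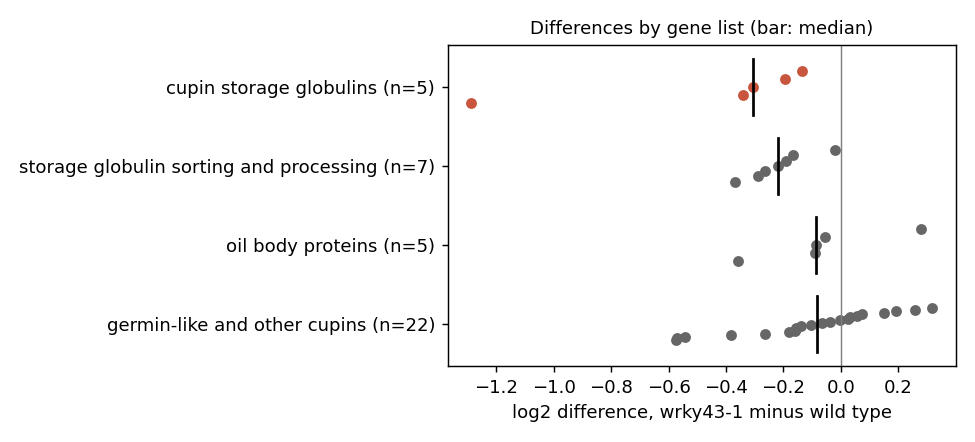
Log2 difference, wrky43-1 minus wild type (horizontal axis), of each measured gene in 4 gene lists, with a bar at the median. All 5 globulin genes and all 7 sorting and processing genes lie left of 0, AT1G03890 far from the rest at -1.29, and the other lists lie on both sides of 0. Most germin-like and other cupin genes read below the array medians.

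Regulators of seed maturation act on globulin genes, not all of them as activators, and 2 of 13 listed regulators were measured. BZIP53, which binds promoters of storage protein genes together with partner factors, read 7.60 and 7.76 in wild type and 8.29 and 8.14 in wrky43-1, a log2 difference of 0.53 (SE 0.14, limma adjusted p = 0.224), the opposite direction to the globulin genes. EEL read 8.93 and 8.82 against 8.68 and 8.96, with overlapping genotypes. Of the 5 LEA and dehydration genes 3 read higher and 2 lower (median 0.14), with log2 differences of -0.50 for the LEA gene M17, 0.33 for the dehydrin gene LTI30 and 0.15 for the cold-response gene COR15A, and 0 passed the adjusted threshold in limma.

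For AT1G03890, the one member with a difference of at least 0.5 and no overlap, the 5 genes with the most similar profile were found by the Euclidean distance of values centred per gene over the 4 arrays. Nearest was AT4G36080, at a distance of 0.064, which read 7.37 and 7.33 in wild type and 6.17 and 5.99 in wrky43-1. AT4G27280 (distance 0.11), the glycosyltransferase gene UGT73B4 (0.20), AT4G09880 (0.21) and AT1G48090 (0.22) followed, with log2 differences of -1.21, -1.34, -1.17 and -1.11. Of these, AT4G36080 and AT1G48090 span 18261 and 26499 bp in the reference, against 1823 bp for AT1G03890. A likeness over 4 arrays describes only the size and order of the 4 values.

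Gene length lay in a narrow range for the members, from 1823 bp for AT1G03890 to 2938 bp for AT2G18540. Over probe sets with 1 gene the difference had a slope of -0.15 per unit of log10 gene length. Genes of a length within 0.05 on the log10 scale of that of AT1G03890 had a median difference of 0.036, and those within 0.05 of AT2G18540 of -0.038. With a straight line on log10 gene length taken out, the differences were -1.28 for AT1G03890, -0.17 for PAP85, -0.11 for AT2G28490, -0.27 for AT2G18540 and -0.32 for AT4G36700. The line shifted each value too little to change a sign, so the kept direction is no test of the part of gene length.

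**Figure D4:**
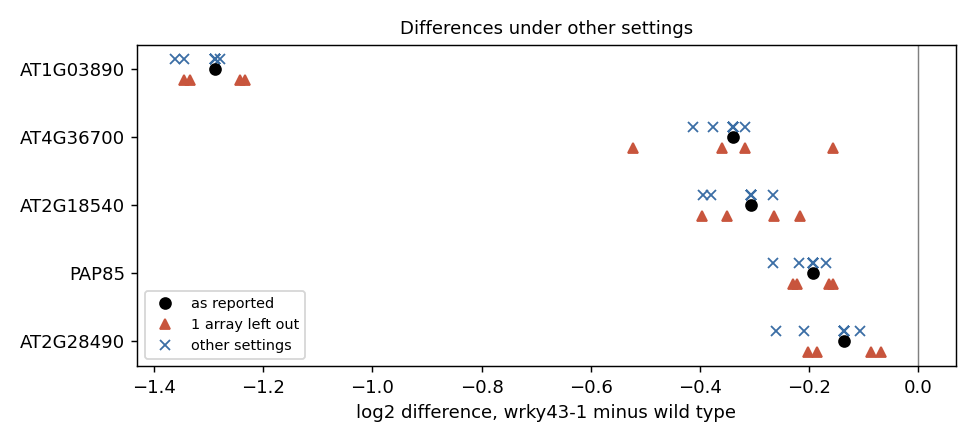
Log2 difference of each gene (horizontal axis) as reported (black circle), with 1 array left out (red triangles) and under the other processing settings (blue crosses). All symbols lie left of 0; those of AT1G03890 keep between -1.36 and -1.23, and those of AT4G36700 spread from -0.52 to -0.16.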

How the data were processed

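The authors deposited 1 table of 38408 probe set values on 4 arrays; the scale is not stated in the sources used here and was read as log2 from the deposited values, between 1.18 and 14.27. Normalization, probe summary and genome build are not named by any source at hand. Probe sets were named through the platform's annotation and TAIR10.1 gene IDs, and 16670 of 16722 probe sets with 1 gene were matched. The nearest named probe sets by number lay on the same chromosome for all 5 members (at least 19 of 20), and 0 members shared identical values with another probe set. Genotypes were compared with limma 3.58.1 in R 4.3.3 (lmFit and eBayes, no trend, robust or block, two-sided), p-values adjusted after Benjamini-Hochberg across the 38408 probe sets, a threshold of 0.05, 2 residual and 2.34 prior degrees of freedom; the step was tested on simulated data. Array medians differed by 0.088, so nothing was rescaled. Genes of the lists were represented by their probe set of highest mean, and up to 3 genes with the smallest p of each list were named, others after their values were seen. Likeness was computed for members with a difference of at least 0.5. Like level means within 0.5 on the log2 scale. The members and lists were chosen with earlier results of these data known. The labels call the replicates biological. Alternatives covered the replicate block, normalization, low-value filters (all 5 members passed those at 30 and 50 percent), the variance prior, array weights, left-out arrays and gene length; the planned search of promoter motifs and list of all annotated cupins could not be made with the tables used here.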

Additional observations from a re-analysis of the deposited data

How the results depend on the processing

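Each of the 5 cupin genes kept a negative difference in all 13 settings run for it, and none passed an adjusted p under 0.05 in any. The lowest adjusted p of AT1G03890 was 0.05005, with a variance prior that follows intensity, and its highest was 0.482, without wrky43-1 replicate 1. Leaving out each array in turn gave differences of -1.35 to -1.23 for AT1G03890, -0.40 to -0.22 for AT2G18540, -0.20 to -0.068 for AT2G28490, -0.23 to -0.16 for PAP85 and -0.52 to -0.16 for AT4G36700, where a single array is taken to vary as the other group does. Deviations of same-numbered arrays from their group means were nearly uncorrelated over all probe sets (r = -0.026). That value cannot show whether same-numbered arrays were prepared together. With the replicate number as a block the limma adjusted p of AT1G03890 was 0.304 and its difference again -1.29. The count of members at an unadjusted p under 0.05 depended on the setting. The unadjusted limma p of AT2G18540 was 0.031 with quantile normalization, 0.046 with centred arrays and 0.019 with the intensity trend. With that trend the p of PAP85 was 0.018. AT2G28490 and AT4G36700 stayed above 0.05 in these settings. The share of all probe sets under 0.05 was not computed for them. Over all probe sets, 1 was higher as reported. That number was 0 with the replicate block, 74 with the intensity trend, 6 after the lowest 50 percent had been left out, 2 with centred arrays and 479 with a fold of 2 or more at p under 0.01 without adjustment, and it was 0 to 0 without single arrays. The number lower, 0 as reported, was 30 with an intensity trend and 143 at that unadjusted threshold. For these the cause was not tested. The mean of all probe sets of a gene was not run, because each member has 1. Signal over background is unknown, and 2 arrays per genotype limit what could be detected.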
